A study of Mus musculus with 24 samples.

Results

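The cytosolic ribosomal protein genes encode the proteins that, with ribosomal RNA, build the 2 subunits of the ribosome outside mitochondria. Members were taken by symbol: names made of Rpl or Rps with a number and an optional suffix, together with Rpsa, Rplp0, Rplp1 and Rplp2. Rps6k kinases and symbols of pseudogenes ending in -ps were left out. The rule found 87 of the 14769 gene symbols listed in the deposited tables, and it used no measured value. Of these, 77 are the core genes, 46 for the large 60S subunit (3 of them for its stalk) and 31 for the small 40S subunit. Another 4 are paralogues with introns (Rpl22l1, Rpl36al, Rpl7l1 and Rps27l) and 5 are retrocopies of core genes (Rps27rt, Rpl37rt, Rps4l, Rps3a2 and Rps3a3). Of the retrocopies, GENCODE marks Rpl37rt, Rps4l, Rps3a2 and Rps3a3 as processed pseudogenes and Rps27rt as protein coding, so the 87 include pseudogenes that the symbol rule kept. The remaining match, Rps19bp1, encodes a protein that binds RPS19 and is not part of the ribosome. All 87 were listed in 3 of the 4 tables, and 86 in the comparison of CL KO with CL WT, which does not list Rps3a2.

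A ribosome holds a fixed set of these proteins, and cells make them in matched amounts, so their mRNAs tend to be expressed together. In vertebrates most of these mRNAs begin with a 5′ terminal oligopyrimidine (TOP) tract, a run of C and T that lets the kinase mTOR and the binding protein LARP1 switch their translation on and off. In brain tissue the ribosomal protein mRNAs are made by neurons, glia and vascular cells alike.

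The libraries were made from cortical total RNA, depleted of ribosomal RNA, of male mice 3 to 4 months old. All animals had the middle cerebral artery blocked for 1 h and were studied after 1 day of reperfusion, a rodent model of ischemic stroke with no unoperated group among these samples. Each genotype gave 6 CL and 6 PI libraries. WT animals are wild type, and KO animals lack ciRS-7, a circular RNA known for its many sites for the microRNA miR-7. What CL and PI stand for is not spelled out in the labels, and both marks are used as given. They give the strain C57BL/6N-Cdr1asem1Nikr for every animal, WT included, and name the same 6 animals of a genotype for its CL and PI libraries. Values are log2 CPM (reads of a gene relative to the library total) in 4 tables, each with 2 groups and a scaling of its own, so levels are compared only within a table.

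The row named Cdr1as stood at 11.35 to 11.52 log2 CPM in PI WT and at -9.97 to -2.59 in PI KO. In the CL table it stood at 11.75 to 11.89 in WT and at -7.97 to -4.06 in KO. The KO values lay far below the WT values in both tables, and the table of PI KO and CL KO does not list this row. The files give no position for it, and it serves here only as a check of the labels. Depth, read from the steps between low values, was 3.76 to 10.5 M (mega) reads per library, and the shallowest library was CL KO replicate 6. The deposited values had been drawn in: in every gene the 2 lowest libraries of a group share a value and so do the 2 highest. The 4 inner values of a gene and group can be worked out, while its outermost libraries cannot. Ranges given below run over these 4 recoverable values, the median is that of the group, and ± is the standard error (SE) of a trimmed mean (n = 6). Cortical markers were present: all 6 markers of cortical excitatory neurons were listed in every group.

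The core genes lie on 19 chromosomes, 4 of them on X, and their transcripts are short. The principal transcript had a median length of 729 bases (271 to 3706) against 2859 over all listed genes (GENCODE M21, GRCm38). Inside 30 of the 77 core genes lie 58 annotated genes of small nucleolar RNAs, the guides of ribosomal RNA modification. The median core gene stood at 6.61 log2 CPM in CL WT, and the highest, Rpl3, at 8.18. Per kilobase of transcript the median core level was 129 CPM, with quartiles of 83.3 and 192. Rps21, a protein of the 40S subunit, was highest at 413 CPM per kilobase, followed by Rpl26 at 351 and Rps27 at 341. The lowest member of all was the retrocopy Rps3a2 at 2.35 CPM per kilobase.

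The start sites of 6 members that the results turn on are printed here, since the pyrimidine run at the start is the feature TOP mRNAs share. They were chosen after their values were seen. Each stretch has 50 bases of the coding strand from RefSeq on GRCm38.p6, 25 before the annotated start and 25 from it on, and capitals mark every run of 8 or more C or T. Rps15a lies at chr7:118116123-118116172 (minus strand), Rps6 at chr4:86857343-86857392 (minus), Rps27 at chr3:90213624-90213673 (minus), Rps27l at chr9:66946061-66946110 (plus), Rplp0 at chr5:115559442-115559491 (plus) and Rps21 at chr2:180257354-180257403 (plus).
Rps15a: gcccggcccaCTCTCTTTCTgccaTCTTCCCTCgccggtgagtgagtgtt
Rps6: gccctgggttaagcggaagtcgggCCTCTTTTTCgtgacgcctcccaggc
Rps27: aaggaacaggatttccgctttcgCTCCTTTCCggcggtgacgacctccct
Rps27l: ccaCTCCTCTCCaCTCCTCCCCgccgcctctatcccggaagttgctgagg
Rplp0: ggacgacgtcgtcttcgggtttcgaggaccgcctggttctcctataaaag
Rps21: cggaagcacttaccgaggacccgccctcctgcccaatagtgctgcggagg

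In Rps6 and Rps27 the run spans the annotated start. Rps15a has 2 runs, of which 1 spans the start and the other lies before it, and both runs of the paralogue Rps27l lie before the start. The windows of Rplp0 and Rps21 hold no run of 8, and the longest there has 7 bases. Rps27l and Rps21 have 2 RefSeq starts each, of which 1 is shown, picked by the longest run. RefSeq starts were found for 57 of the 77 core genes, with 67 windows. Such a run was present in 46.3% of the core windows and in 19.7% of all 32851 promoter windows. CCGGAAG, the letters bound by ETS family factors, was found on either strand of the 300 promoter bases in 37.3% of core windows and 8.86% of all. TATAA in the 50 bases before the start, coding strand only, was found in 5.97% and 4.93%. A run can share letters with the CC of CCGGAAG, with the CTTCC of its reverse complement, and with a T of TATAA. These matches describe the printed windows and are not sites of binding.

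From CL to PI in WT, 12 of the 87 members were called higher and 0 lower at an adjusted p under 0.05. Of all 14489 genes, 5.2% were called higher and 5.4% lower, against 13.8% of the members higher. The called members were Rps6, Rps12, Rps13, Rps15a and Rps18 of the small subunit, Rpl8, Rpl19, Rpl32, Rplp0 and Rplp2 of the large one, and the paralogues Rpl7l1 and Rps27l. Among the core genes 69 of 77 had a positive difference, with a median log2 difference of 0.10 and quartiles of 0.05 and 0.15. The median over all genes was 0.01. Before adjustment 26 members (29.9%) had p under 0.05, all of them higher, and 23.9% of all genes had such a p in either direction. Called members were 5 of 31 in the 40S group and 5 of 46 in the 60S group. The counts hang on how the spread is estimated: with a prior variance that ignores the expression level 1 member was called higher, where 4% of all genes were. Limma on the values as deposited called 45 members higher and 2 lower, and 22.9% and 21.7% of all genes.

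From CL to PI in KO, 40 of the 87 members were called higher and 0 lower, where 5.11% of all 14338 genes were called higher and 4.94% lower. All 77 core genes had a positive difference, from 0.04 in Rps14 and Rpl21 to 0.57 in Rplp0. The core median was 0.24 with quartiles of 0.18 and 0.30, and the median over all genes was 0.00 to 2 decimals (-0.000678). Called core genes were 39 of 77, 19 of 31 in the 40S group and 20 of 46 in the 60S group. Before adjustment 66 members (75.9%) had p under 0.05, all of them higher, and 24.9% of all genes had such a p in either direction. The prior variance that ignores the level left 9 members called higher, with 3.08% of all genes. Limma on the deposited values called 76 members higher and 0 lower, and 23.1% and 23.4% of all genes. With CL KO replicate 6 left out, 32 members and 4.44% of all genes were called higher.

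**Figure D1:**
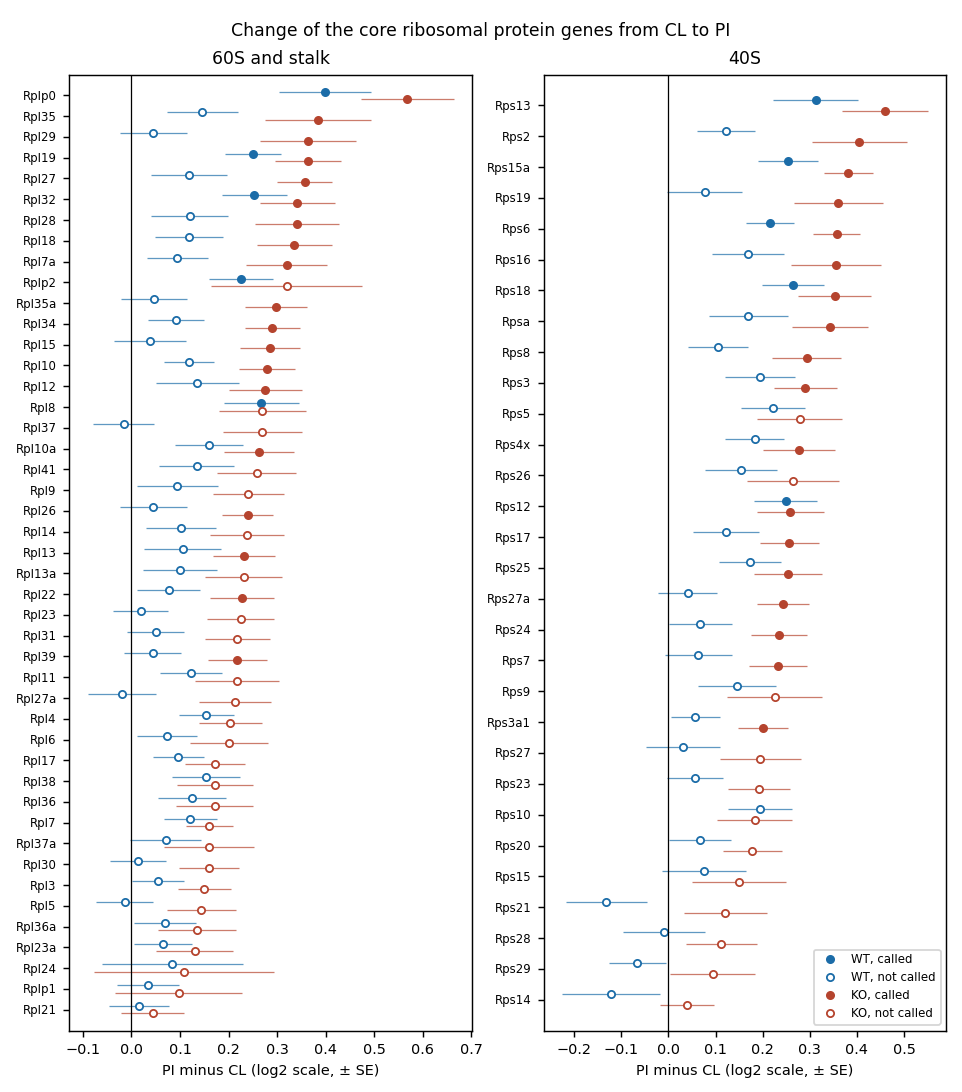
Log2 difference between PI and CL (x axis, ± SE) for core genes of the 60S subunit with its stalk (left) and of the 40S subunit (right), in WT (blue) and KO (red), ordered by the KO difference; filled points passed adjusted p under 0.05. Every red point lies right of 0, as do most blue points.

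Rplp0, the stalk protein that anchors the acidic P proteins at the factor-binding site of the large subunit, had the largest core difference in both genotypes. In WT it lay at 62.6 to 70.5 CPM in CL (median 67.5) and at 76.6 to 97.6 in PI (median 90.1). In KO it lay at 56.7 to 69.8 in CL (median 65.0) and at 86.1 to 102 in PI (median 96.1). The ranges of PI and CL did not overlap in either genotype. The log2 difference was 0.40 ± 0.09 in WT, a 1.32-fold rise (adjusted p = 0.0164), and 0.57 ± 0.10 in KO, a 1.48-fold rise (adjusted p = 0.00278). Its partners in the stalk were not alike. Rplp2 rose in WT by 0.23 ± 0.07 (adjusted p = 0.0451), from a median of 30.2 to 35.0 CPM, though with the animal as a block the adjusted p was 0.0625. In KO its difference was 0.32 ± 0.16 (adjusted p = 0.225, 0.0295 with the block), and its CL KO libraries were spread from 24.8 to 39.4 CPM. Rplp1 differed by 0.03 ± 0.06 in WT and 0.10 ± 0.13 in KO and passed in neither.

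Rps6, the small-subunit protein phosphorylated by S6 kinase, had libraries that lay close together. In WT it lay at 127 to 132 CPM in CL and 145 to 154 in PI, and in KO at 125 to 128 in CL and 161 to 166 in PI. Within each genotype the PI libraries stood apart from the CL libraries by more than the width of either group. The log2 difference was 0.22 ± 0.05 in WT (adjusted p = 0.0153) and 0.36 ± 0.05 in KO (adjusted p = 0.000869). Rps15a, also of the 40S subunit, lay at 153 to 164 CPM in PI WT above 124 to 140 in CL WT. In KO its range was 169 to 174 CPM in PI and 129 to 136 in CL. Its log2 difference was 0.25 ± 0.06 in WT (adjusted p = 0.0231) and 0.38 ± 0.05 in KO, where it had the smallest adjusted p of any member, 0.000701.

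Rpl19, a 60S protein that forms a bridge to the small subunit, rose from a median of 146 to 174 CPM in WT and from 143 to 186 in KO. Its recoverable values did not overlap in either genotype, and the log2 differences were 0.25 ± 0.06 (adjusted p = 0.0148) and 0.36 ± 0.07 (adjusted p = 0.0053). Rps18, of the head of the small subunit, rose from a median of 68.7 to 82.8 CPM in WT and from 69.4 to 86.3 in KO. Here too PI lay above CL throughout, by 0.26 ± 0.07 (adjusted p = 0.0218) and 0.35 ± 0.08 (adjusted p = 0.0134).

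Rps13, of the 40S subunit, rose by 0.31 ± 0.09 in WT (adjusted p = 0.0434) and by 0.46 ± 0.09 in KO (adjusted p = 0.00747). Rps2, at the mRNA entry site of the 40S subunit, rose in KO by 0.41 ± 0.10 (adjusted p = 0.0243), and its WT difference was 0.12 ± 0.06 (adjusted p = 0.256). Rpl8, of the 60S core near the peptidyl transferase centre, was called in WT at 0.27 ± 0.08 (adjusted p = 0.0449). In KO it differed by the same 0.27 ± 0.09 (adjusted p = 0.0761, and 0.0146 with the block). Rpsa, a small-subunit protein also known as the laminin receptor, rose in KO by 0.34 ± 0.08 (adjusted p = 0.0189), and its WT difference was 0.17 ± 0.08 (adjusted p = 0.244).

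**Figure D2:**
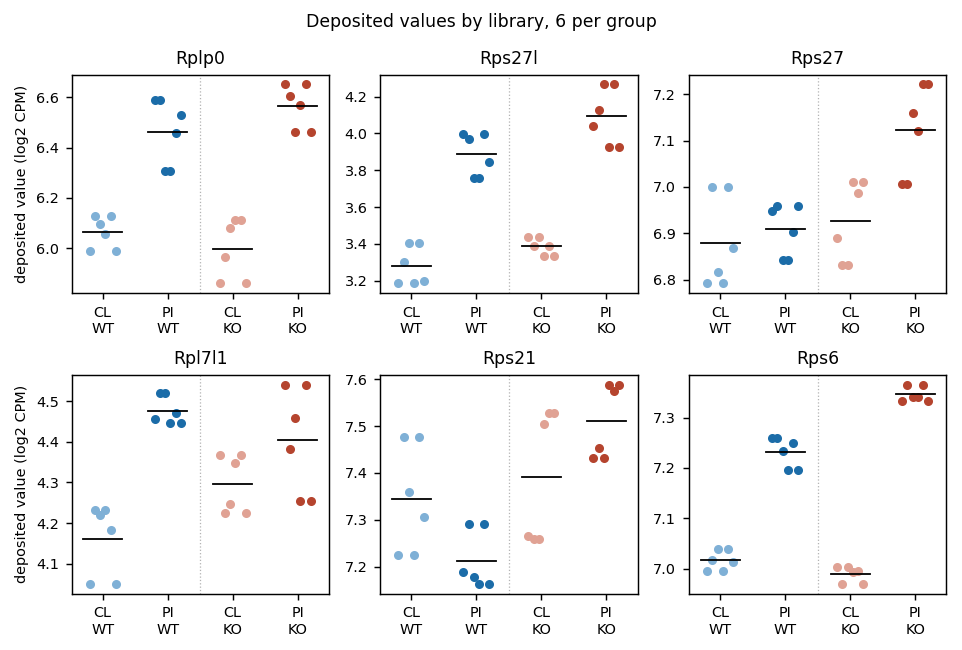
Deposited values (y axis, log2 CPM) of 6 members in every CL and PI library of both genotypes; each point is a library, the bar is the mean of the deposited values, and the dotted line parts the WT table from the KO table. Rplp0 and Rps27l stand higher in PI in both genotypes, while Rps21 and Rps27 overlap between CL WT and PI WT.

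The recoverable values of PI lay wholly above those of CL for 27 members in WT and 65 in KO, where 13.2% and 13.4% of all genes did. In 25 members this held in both genotypes. The share of all genes for which it held in both was not worked out, so nothing is read from that count. Called in both were 9 members: Rps6, Rps12, Rps13, Rps15a, Rps18, Rps27l, Rpl19, Rpl32 and Rplp0. These are 75% of the members called in WT and 22.5% of those called in KO. Among all genes called higher, 58.7% of the WT calls were also called in KO and 59.8% of the KO calls in WT. Across the 77 core genes the WT and KO differences, which share no library, had a Pearson r of 0.71 and a Spearman rho of 0.60, beside a Pearson r of 0.58 over all genes. Genes are not independent replicates, and all values of a genotype come from the same 12 libraries. The SD of the differences among core genes was 0.10 in each genotype.

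A few core genes did not go with the others in WT. Rps21, the highest member per kilobase, lay at 147 to 183 CPM in CL WT and at 143 to 161 in PI WT. Its groups overlapped, with a log2 difference of -0.13 ± 0.09 (adjusted p = 0.396). Rps14, of the 40S platform, differed by -0.12 ± 0.10 and Rps29, a small zinc-binding protein, by -0.07 ± 0.06. Rpl5, Rpl27a, Rpl37 and Rps28, also negative in WT, all lay within 0.02 of 0. Rpl5, Rpl27a, Rps14, Rps28 and Rps29 are named here because of their values, as were Rpl3, Rpl21 and Rpl26 above. Core genes with a higher level tended to have smaller differences, with a Pearson r of -0.38 in WT and -0.35 in KO over 77 genes, which share libraries and depth.

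Taken per library, the median of the 77 core genes lay at 6.55 to 6.75 log2 CPM in CL WT and 6.63 to 6.76 in PI WT, so the groups overlapped. In KO it lay at 6.57 to 6.74 in CL and 6.84 to 6.93 in PI, and these did not overlap. Within the same animal the PI library exceeded the CL library in 6 of 6 WT animals, by 0.01 to 0.19. In 6 of 6 KO animals it did so by 0.19 to 0.31. In WT animals 4 and 5 the rise was 0.017 and 0.011. The median of all genes rose by more there, from 4.208 to 4.242 and from 4.193 to 4.229 log2 CPM. The sign in these animals thus rests on the scaling. Summed over the core genes, the scaled CPM was 8466 to 9203 in PI WT and 7944 to 8823 in CL WT. In KO the sum was 9389 to 10180 in PI and 7926 to 8680 in CL. The scaling differs between tables, so these sums are not shares of reads. These values rest on the drawn-in values and so understate the spread between libraries.

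**Figure D3:**
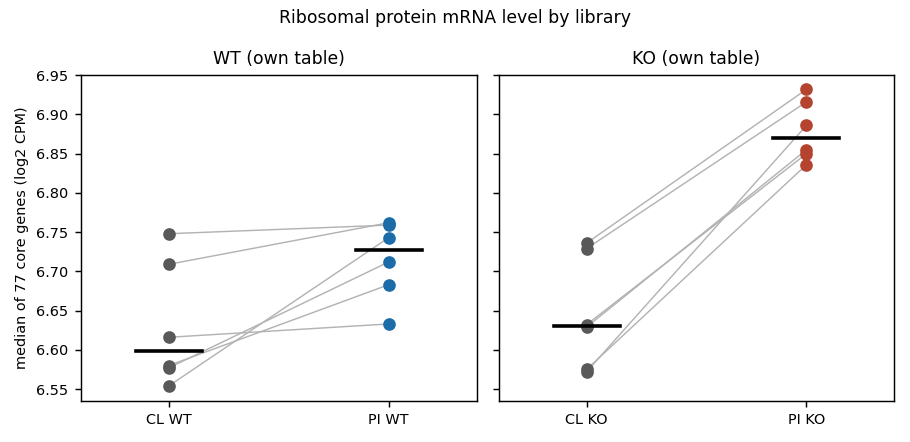
Median log2 CPM of the 77 core genes in each library (points) of CL and PI, for WT (left) and KO (right), each in its own table; grey lines join the libraries of an animal and bars mark group medians. Every line rises on the scaling of its table, those of WT animals 4 and 5 by less than the median of all genes. The WT groups overlap (6.55 to 6.75 against 6.63 to 6.76) and the KO groups do not (6.57 to 6.74 against 6.84 to 6.93).

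Compared directly in PI cortex, KO and WT differed in no member past the threshold. The moderated trimmed-mean test called 0 of 87 members, where 0.00692% of all 14452 genes were called higher and 0.0138% lower, and the smallest adjusted p among members was 0.768. The difference was positive in 84 of 87 members, with a median of 0.14 (quartiles 0.11 and 0.19) against -0.00 over all genes (-0.004851). Core genes shift together between libraries: 6 to 70 of 77 lay above their group mean in single PI WT libraries, and 16 to 70 in PI KO. The count of positive members is therefore not a count of separate evidence. Per library the core median lay at 6.66 to 6.79 log2 CPM in PI WT and 6.87 to 6.97 in PI KO. These medians rest on drawn-in values and understate the spread. Before adjustment 34 members (39.1%) had p under 0.05, all higher in KO, where 5.75% of all genes had. Limma on the deposited values called 56 members higher and 0 lower, and 7.92% and 8.6% of all genes. The recoverable values of PI KO lay wholly above those of PI WT for 36 members, against 4.39% of all genes.

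Rps21 had the smallest p of any member there. It lay at 146 to 163 CPM in PI WT and 176 to 198 in PI KO, without overlap, a log2 difference of 0.30 ± 0.07 (adjusted p = 0.768). The paralogue Rpl7l1, at -0.07 ± 0.11, and the retrocopy Rpl37rt, at -0.07 ± 0.23, lay below 0, and both overlapped between genotypes.

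In CL cortex the members showed no common direction: 45 of 86 were positive and 41 negative, with a median of 0.01. The same test called 0 members, with 0.014% of all 14323 genes called higher and as many lower, and 2 had an unadjusted p under 0.05. Those 2 were retrocopies. Rpl37rt lay at 5.34 to 8.17 CPM in CL WT and 9.38 to 10.7 in CL KO, a log2 difference of 0.59 ± 0.17 (adjusted p = 0.608). Rps27rt lay at 3.62 to 4.43 and 5.22 to 7.35 CPM, a difference of 0.59 ± 0.18 (adjusted p = 0.642). They were also the only 2 members whose recoverable values did not overlap, against 4.35% of all genes. Limma on the deposited values called 4 members higher and 2 lower, where 8.22% of all genes were called higher and 7.92% lower, so the members' shares lay below those of all genes.

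The change from CL to PI was larger in KO than in WT for 76 of the 77 core genes, by a median of 0.14. Core genes shift together between libraries, so this count is not a count of separate evidence. The test of that interaction called 0 of 87 members and 0% of all 14211 genes, with a smallest adjusted p of 0.992 among members. Before adjustment 19 members (21.8%) had p under 0.05, 18 of them with the larger change in KO and 1 (Rpl37rt, -0.65) with the smaller, against 4.55% of all genes. Limma on the deposited values called 32 members higher and 1 lower, and 6.47% and 7.18% of all genes. Rpl35a, of the 60S subunit, differed by 0.05 ± 0.07 in WT and 0.30 ± 0.06 in KO, an interaction of 0.25 ± 0.09 (adjusted p = 0.992). The comparisons of KO with WT share the PI libraries with the comparisons of PI with CL, so their counts are not independent of each other.

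**Figure D4:**
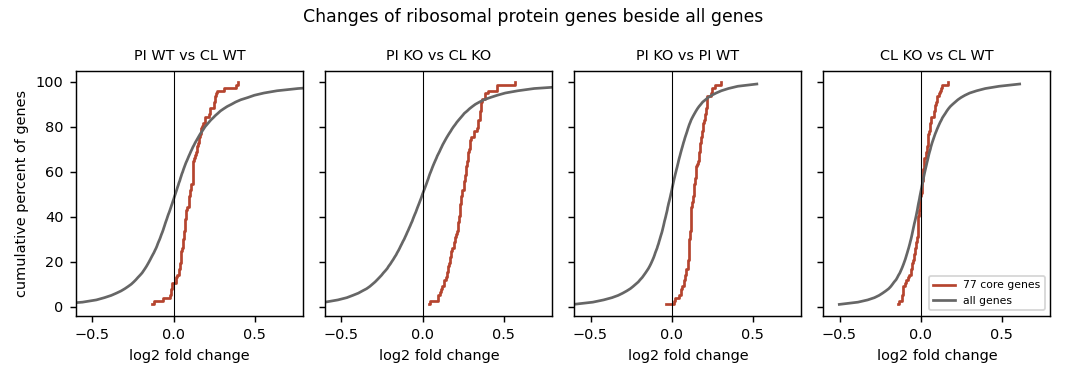
Cumulative percent of genes (y axis) against log2 fold change (x axis) for the 77 core genes (red) and all genes (grey, percentiles 1 to 99) in each of the 4 comparisons. The red curve lies right of the grey one around its middle in the first 3 panels (core medians 0.10, 0.24 and 0.14) and crosses it near 0 for CL KO against CL WT (core median 0.00, 0.002998 unrounded).

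Paralogues are set beside their partners. Rps27l, a paralogue of the 40S protein Rps27 and a known p53 target gene, had the largest called difference of any member in both genotypes. It lay at 9.07 to 10.9 CPM in CL WT and 13.2 to 16.1 in PI WT, while in KO the PI values were 14.8 to 19.9 CPM and the CL values 9.99 to 10.97. The PI values lay above all CL values in each genotype. The log2 difference was 0.61 ± 0.12 in WT, 1.52-fold (adjusted p = 0.00573), and 0.71 ± 0.13 in KO, 1.63-fold (adjusted p = 0.00428). Rps27 itself overlapped between CL WT (110 to 132 CPM) and PI WT (113 to 125), with a difference of 0.03 ± 0.08 (adjusted p = 0.864). In KO it differed by 0.20 ± 0.09 (adjusted p = 0.175). Per kilobase Rps27 was 17.5 times Rps27l in CL WT and 11.7 times in PI WT. The difference between the paralogue's change and its partner's was not tested.

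Rpl7l1, a relative of Rpl7, rose in WT by 0.32 ± 0.09 (adjusted p = 0.0403) from a median of 18.4 to 22.1 CPM. In KO it lay at 18.6 to 20.7 CPM in CL and 18.5 to 23.7 in PI, with overlap, and differed by 0.11 ± 0.11 (adjusted p = 0.606). Rpl7 differed by 0.12 ± 0.05 in WT (adjusted p = 0.196) and 0.16 ± 0.05 in KO (adjusted p = 0.0568), and stood 11.7 times higher per kilobase in CL WT. Rpl22l1 and Rpl22 stood at nearly equal levels per kilobase, 135 and 129 CPM in CL WT. Rpl22 rose in KO by 0.23 ± 0.07 (adjusted p = 0.045), and Rpl22l1 differed by 0.26 ± 0.09 (adjusted p = 0.0798, and 0.0183 with the block). In WT neither passed, at 0.08 and 0.11. Rpl36al stood at 70.9 CPM per kilobase and Rpl36a at 135 in CL WT, and neither passed in any comparison.

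Retrocopies and their parent genes are similar in sequence, so their values are uncertain: how reads that match both were counted is not given in the sources used here. Their levels were low: in CL WT the parent stood 30.8 times above Rps27rt, 19.1 times above Rpl37rt, 24.8 times above Rps4l, 107 times above Rps3a3 and 115 times above Rps3a2 per kilobase. Their differences from CL to PI ranged from -0.60 in Rps3a3 to 0.96 in Rps3a2 in WT, and none passed. With the animal as a block, Rpl37rt (0.48, adjusted p = 0.0293) and Rps3a2 (0.96, adjusted p = 0.0244) passed in WT. Rps3a2 lay between no detected read and 1.94 CPM in CL KO and at 3.14 to 4.63 CPM in PI KO, so its fitted fold change there rests on the value that stands for 0 and is not given. It passed in KO only with the block (adjusted p = 0.0108). Of the parents, Rpl37 differed by -0.02 in WT and 0.27 ± 0.08 in KO (adjusted p = 0.0559, and 0.00426 with the block). Rps3a1 rose in KO by 0.20 ± 0.05 (adjusted p = 0.0321) and Rps4x by 0.28 ± 0.08 (adjusted p = 0.0379). Rps19bp1, the match that is no ribosomal protein, differed by 0.05 ± 0.19 and 0.25 ± 0.25.

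The promoter runs printed above were set beside these differences. Core genes with a run of 8 or more near the start (30) had a median difference of 0.12 in WT and 0.26 in KO. Those without (27) had 0.08 and 0.24, and their ranges overlapped (-0.02 to 0.26 with a run and -0.13 to 0.40 without in WT). Both Rplp0, at the top, and Rps21, among the lowest in WT, were without a run.

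Genes that work with ribosomal proteins were taken from 3 lists chosen with earlier results of these data known. Of 19 translation factors and other TOP mRNAs, 2 were called higher in WT and 6 in KO, with medians of 0.10 and 0.18 against 0.01 and -0.000678 over all genes. The share of all genes called higher was 5.2% in WT and 5.11% in KO, which also stands beside the counts of the next lists. Rack1, a scaffold protein of the small subunit, rose by 0.24 ± 0.06 in WT (adjusted p = 0.0167) and 0.35 ± 0.06 in KO (adjusted p = 0.00485). Eef1a1, the factor that brings aminoacyl-tRNA to the ribosome, rose in KO by 0.20 ± 0.04 (adjusted p = 0.016), and Tpt1, a TOP mRNA, by 0.30 ± 0.06 (adjusted p = 0.009). Pabpc1, the poly(A)-binding protein, rose in WT by 0.29 ± 0.07 (adjusted p = 0.0232).

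Of 43 listed ribosome assembly genes (44 chosen), 7 were called higher in WT and 9 in KO, with medians of 0.13 and 0.18. Ddx21, a nucleolar RNA helicase, rose by 0.45 ± 0.06 in WT (adjusted p = 0.000927) and 0.65 ± 0.14 in KO (adjusted p = 0.00952). Mybbp1a, a nucleolar regulator of RNA polymerase I, rose by 0.35 ± 0.07 (adjusted p = 0.00559) and 0.45 ± 0.10 (adjusted p = 0.0116). Rrn3, an initiation factor of the same polymerase, rose by 0.27 ± 0.07 (adjusted p = 0.0196) and 0.21 ± 0.06 (adjusted p = 0.0329), and Heatr1, of the small-subunit processome, rose in KO by 0.29 ± 0.07 (adjusted p = 0.0215). Of 17 genes of mTOR signalling and control of TOP translation, Myc alone was called, higher by 0.98 ± 0.29 in WT (adjusted p = 0.0482) and by 1.30 ± 0.33 in KO (adjusted p = 0.0254). A count of 1 in 17 is near the share of all genes called higher. No gene of the 3 lists was called lower in these comparisons, and none was called between KO and WT in either cortex sample.

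Other features of the libraries also differed from CL to PI. Of all genes, 5.2% were called higher and 5.4% lower in WT, and 5.11% and 4.94% in KO. These shares stand beside the marker counts from CL to PI below. Of 10 microglia markers 5 were called higher and 1 lower from CL to PI in each genotype, and their summed level was 205 to 232 CPM in PI WT above 184 to 197 in CL WT, and 224 to 277 in PI KO above 195 to 213 in CL KO. In the table of both PI groups it was 209 to 237 CPM in WT and 229 to 284 in KO, with 9 of 10 markers positive and 0 called. In the table of both CL groups the sum was 180 to 193 CPM in WT and 191 to 209 in KO. There too 9 of 10 markers were positive and 0 called. Of 8 neuron markers 3 were called lower in each genotype, and 1 higher in KO, and their sum was 5284 to 6008 CPM in PI WT and 6223 to 6804 in CL WT. In KO it was 5037 to 5819 in PI and 6254 to 6586 in CL. Of the 6 markers of cortical excitatory neurons 0 were called in WT, and Tbr1 alone was called, lower, in KO. Their sums overlapped, at 826 to 898 CPM in PI WT with 863 to 919 in CL WT. In KO they were 777 to 919 in PI and 878 to 963 in CL. Of 7 astrocyte markers Aqp4 and Gfap were called higher in each genotype, Gja1 was called lower in each, and Slc1a2 was called lower in WT. Their sum was 6666 to 7175 CPM in PI WT below 7449 to 7944 in CL WT, and 6479 to 7227 in PI KO below 7488 to 8108 in CL KO. Of 8 oligodendrocyte markers Cnp alone was called, lower in WT, and their sums overlapped, at 1440 to 2259 CPM in PI WT with 2093 to 2340 in CL WT, and at 1617 to 1868 in PI KO with 1619 to 2389 in CL KO. All 6 endothelial markers had a positive difference in each genotype and none was called, and their sums overlapped, at 44.0 to 80.6 CPM in PI WT with 38.2 to 63.5 in CL WT, and at 56.3 to 67.8 in PI KO with 44.2 to 59.6 in CL KO.

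Of 12 leukocyte markers 1, Csf3r, was listed in both tables of PI and CL, at 1.20 to 2.44 CPM across groups, and S100a8, S100a9, Ly6c2, Ccr2 and Cd3e were not listed there. The table of both PI groups lists 3 of the 12, S100a8, S100a9 and Csf3r. All 3 had a positive difference in KO against WT, with a median of 0.77, and none was called. Their sum was 4.94 to 11.9 CPM in PI KO (median 7.45) and 3.73 to 6.13 in PI WT (median 4.36), with overlap. In bulk tissue, fewer cells of a type and less RNA per cell cannot be told apart, and the part of cell makeup in the members' differences was not tested.

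Taken over all levels, short transcripts other than the members moved the same way, by less, but in WT those above 5 log2 CPM did not. Non-member genes with transcripts under 1000 bases had a median difference of 0.04 in WT, 0.07 in KO and 0.06 between PI KO and PI WT. Those over 4000 bases had -0.02, -0.04 and -0.02. Among the short genes above 5 log2 CPM, the medians were -0.00 (-0.00355), 0.03 and 0.05, against core medians of 0.10, 0.24 and 0.14. Among the 77 core genes the difference and the log2 transcript length had a Pearson r of 0.08 in WT and 0.15 in KO. Between PI KO and PI WT it was -0.29. The part of transcript length was not tested.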

How the data were processed

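The authors deposited log2 CPM values (reads per gene relative to the library total) in 4 tables of 2 groups each, per the file headers. The aligner, counter, annotation, use of strand, gene filter and scaling are not given in the sources used here, and the build is mm10, per the submitters' processing notes. Per the labels' protocols, TRIzol extraction and TURBO DNA-free treatment were followed by RiboCop depletion of ribosomal RNA and the CORALL library kit. No column of values was left unused (0).

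In 100% of genes the outer values of each group of 6 had been set to the group's quartiles, a step no label records. Inner values were solved from this. As a check, 86.9% to 88.6% of low tied values became whole reads (within 0.03 read) and 10.4% to 12.6% were whole as deposited. A count test was not possible because the lowest and highest library of each gene stay unknown.

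Members were tested in fits over all genes of a table by a moderated trimmed-mean test, with the Winsorized sum of squares, 6 degrees of freedom for 2 groups and 12 for 4, and limma 3.58.1 in R 4.3.3 (empirical Bayes with a mean trend). Tests were two-sided with Benjamini-Hochberg adjustment over all genes. The interaction compares the within-table differences of both tables of PI and CL. On simulated data with no change 5.18% to 5.77% of genes had p under 0.05. For PI WT against CL WT (14489 genes) 18.4% of changes of 0.25 and 47.2% of 0.5 log2 units were called. For PI KO against CL KO (14338 genes) 13.2% and 44.8% were called. False calls were 6.43% to 9.99% over the 5 comparisons, above the nominal share.

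Per the labels, CL and PI libraries with the same number and genotype come from 1 animal, which pairs them. The correlations of their deviations from the group means were -0.04 to 0.23 in WT and -0.04 to 0.24 in KO, and a fit with the animal as a block was run beside the main one. Symbols were matched to GENCODE M21, and levels per kilobase use the principal transcript. Named members were, per comparison, up to 5 called with the largest difference in each direction (the 2 with the smallest p where none was called), up to 6 without overlap in both genotypes, paralogues with their partners, stalk proteins, Rpsa, and the highest and lowest per kilobase. Up to 4 called genes of each related list were also named, by smallest p. Members, lists and tests were chosen with earlier results of these data known. Groups come from the labels, and p-values of the main fit measure the spread between libraries of a group, each from another animal. They do not use the pairing of CL and PI libraries, which only the fits with a block do. Some items that the naming rule selects are not reported here.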

Additional observations from a re-analysis of the deposited data

How the results depend on the processing

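The alternatives were limma on the deposited values, a prior variance without a trend, the replicate block in 2 forms, centring libraries on the median gene or on abundant other genes, log2(CPM + 1), and leaving out low genes (under 1 log2 CPM). Leaving out CL KO replicate 6, the shallowest library, was added after seeing the data. Limma on the deposited values, whose spread is understated by construction, called 45 members higher and 2 lower in PI WT against CL WT, 76 higher in PI KO against CL KO, 56 in PI KO against PI WT, 4 higher and 2 lower in CL KO against CL WT, and 32 higher and 1 lower for the interaction. With the replicate block the same fit called 51 and 3, 78, 49, 5 and 2, and 37 and 2 members. Of all genes it called 3406 higher and 3208 lower, 3340 and 3419, 865 and 935, 988 and 880, and 1023 and 1193. The prior without a trend called 1 member in WT and 9 in KO. Centring on the median gene called 6 members higher in WT and 37 in KO, beside 676 of all 14489 genes and 680 of all 14338. Centring on abundant genes called 19 and 58 members higher, beside 1067 and 1053 of all genes. The cause was not tested. Of all calls in the main fit, 49.1% were higher in WT and 50.8% in KO. These shares were 36.5% and 37.3% under the first centring and 60% and 61.5% under the second. The replicate block with trimmed means called 17 members higher in WT and 58 in KO, beside 1104 and 1014 of all genes. It called 0 members in both comparisons of KO with WT, beside 2 genes higher and 4 lower in PI and 62 and 23 in CL. In those comparisons numbers mark no shared animal (0.0168 and 0.0479 median correlation, with 1 of 6 pairs best with its own number in each). Without CL KO replicate 6, 32 members were called higher in KO with a median of 0.23.

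The median member difference kept its sign under every alternative in all 5 comparisons. The number of positive members moved from 77 to 72 in WT and from 45 to 50 in CL KO against CL WT with centring on the median gene, and to 82 and 49 with centring on abundant genes. Without CL KO replicate 6 it was 52 in CL KO against CL WT. Among the members that the naming rule takes, the following, none of them called, changed sign and the cause was not tested. Centring on the median gene gave Rps27 -0.004315 in WT and Rps3a1 0.005455 in CL KO against CL WT. Centring on abundant genes gave Rpl37 0.02382 in WT and Rps3a1 0.002139 in CL KO against CL WT. Without CL KO replicate 6, Rpl37 was 0.01378, Rplp2 -0.001217 and Rpsa -0.01117 in CL KO against CL WT. Depth limits the retrocopies, since 3 reads equal 0.286 to 0.799 CPM.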
